A study of Mus musculus with 12 samples.

Results

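The ligands Nodal and Gdf3, the co-receptor Tdgf1 and the antagonists Lefty1 and Lefty2 were followed through the reprogramming of mouse fibroblasts. These are 5 genes of the 24098 in the deposited expression table. They were taken from it by symbol, with earlier results of these data known, and all 5 reached at least 1 FPKM in at least 1 library. FPKM counts sequenced fragments relative to transcript length and to the mapped fragments of the library, so that levels of different genes can be set side by side.

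Nodal is a secreted ligand of the TGF-beta family that acts through Activin receptors, Smad2 and Smad3 and their partner Foxh1. It needs a co-receptor of the Cripto type at the cell surface, which Tdgf1 encodes. Lefty1 and Lefty2 are secreted antagonists that block Nodal and its co-receptor, and they are themselves targets of the pathway, which makes the circuit self-limiting. Gdf3 encodes a related ligand known from pluripotent cells. The circuit is best known from the early embryo, where it maintains the epiblast and sets the body axes, and its genes are expressed in embryonic stem cells.

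Mouse embryonic fibroblasts (MEFs) from mid-gestation embryos, which carried a GFP reporter downstream of Oct4, were infected with retroviruses for Oct4, Sox2, Klf4 and c-Myc (OSKM). D0 was uninfected MEFs and D3 unsorted cells on day 3. On days 6 and 9 cells were sorted on the fibroblast surface marker Thy-1 (D6T-, D6T+, D9T-, D9T+), and on days 12 and 16 on the pluripotent surface marker SSEA-1 (D12S+, D12S-, D16S+, D16S-), where Thy-1- and SSEA-1+ cells were taken as the successful route. Induced pluripotent stem cells (iPSCs) and mouse embryonic stem cells (mESCs, labelled ESD3) were the end points. Per the labels, MEFs grew in medium with fetal bovine serum. Reprogramming cells, iPSCs and mESCs grew in a medium with serum replacement, LIF, basic FGF, ascorbic acid, N-2 and the GSK3 inhibitor CHIR99021. Reprogramming used no feeder cells. Medium and infection cannot be told apart in a comparison with D0. The methods of the paper differ from these labels. For iPSCs and mESCs they list LIF medium with serum or serum replacement. For reprogramming they list these media or a further medium with basic FGF and CHIR99021. Whether D16S+, iPSCs and mESCs shared a medium is therefore not settled. Each of the 12 conditions had 1 library, so the differences have no replicate check and none was tested. In place of a replicate error, the interval that cuffdiff deposited with each FPKM is given, which is a modelled range and not a spread between replicates.

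The labels were checked against markers of the cell types. The summed level of 8 fibroblast markers was 7163 FPKM in D0 and 35.9 to 55.2 FPKM in D16S+, iPSCs and mESCs, with Lum at 0 in iPSCs and mESCs. The sum of 8 pluripotency markers was 2.28 FPKM in D0, with Dppa4 at 0. It lay between 3907 and 4637 FPKM in D16S+, iPSCs and mESCs, most of it Dppa5a. In D16S- the sums were 458 FPKM for fibroblast and 149 FPKM for pluripotency markers. Over the 12 libraries, primitive endoderm markers summed to 2.40 to 44.6 FPKM, highest in D0, where Pdgfra had 38.0 FPKM. In mESCs they summed to 26.8 FPKM, with 5 of 6 at 1 FPKM or more, against 4.77 FPKM in D16S+ and 7.36 FPKM in iPSCs. Gata4 (11.1 FPKM), Gata6 (7.82 FPKM), Sox17 and Foxa2 were highest in mESCs, and Sox7 and Pdgfra in D0. Leukocyte markers summed to 15.2 to 125 FPKM, highest in D16S-, where Cd68 had 115 FPKM. Among them, Ptprc was at or below 0.425 FPKM throughout. Keratinocyte markers summed to 7.55 to 240 FPKM, most of it Sfn. The part of these other cell types in the results was not tested. The total FPKM per library ranged from 484968 to 648264, and the depth relative to D0, estimated from the steps between low values, from 0.967 to 1.56. Scaling every library to the same total would move the median difference of all kept genes between D16S+ and D0 from 0.05 to 0.35 in log2. In such bulk samples, fewer cells that express a gene and less RNA per cell cannot be told apart.

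Nodal (ENSMUSG00000037171.6) lies on chromosome 10, 60880720 to 60888086 of the mm9 build, on the plus strand with 3 exons. Its levels along the successful route were 0.0944 FPKM in D0, 0.0632 in D3, 0.438 in D6T-, 2.69 in D9T-, 39.3 in D12S+ and 47.7 in D16S+. The largest step was that from D9T- to D12S+, of 14.6-fold. In the other fractions it was at 0.131 FPKM in D6T+, 1.10 in D9T+, 4.40 in D12S- and 5.36 in D16S-. It was highest in iPSCs with 67.4 FPKM (interval 3.92 to 131) and stood at 16.8 FPKM (0 to 34.8) in the mESC library. Nodal was thus low in every library up to day 6, and each SSEA-1+ library was above its SSEA-1- counterpart.

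Gdf3 (ENSMUSG00000030117.4; chromosome 6, 122555421 to 122560105, minus strand, 2 exons) came up before Nodal. Its levels were 0.0234 FPKM in D0, 0.188 in D3, 5.47 in D6T-, 28.01 in D9T-, 45.2 in D12S+ and 49.4 in D16S+. The Thy-1+ and SSEA-1- fractions held 1.17 FPKM in D6T+, 17.5 in D9T+, 15.9 in D12S- and 10.6 in D16S-. It was at 66.8 FPKM (3.89 to 130) in iPSCs and 32.8 FPKM (0.871 to 64.7) in mESCs. At day 9 Gdf3 was already past 10 FPKM in both fractions, whereas Nodal was below 3 FPKM in both.

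Tdgf1 (ENSMUSG00000032494.8; chromosome 9, 110842114 to 110848662, minus strand, 6 exons) had the highest FPKM of the 5 genes in both fractions of days 12 and 16, in iPSCs and in mESCs. Its levels were 0.155 FPKM in D0, 0.104 in D3, 0.314 in D6T-, 16.1 in D9T-, 250.3 in D12S+ and 339 in D16S+. It was at 0.184 FPKM in D6T+, 5.10 in D9T+, 19.2 in D12S- and 17.8 in D16S-, and so rose in the Thy-1+ and SSEA-1- fractions too, but to a lower level. In iPSCs it was at 176 FPKM (10.5 to 342) and in mESCs at 386 FPKM (2.73 to 769).

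For the first 3 days the low values of these genes can be read in fragments. What 1 fragment was worth in D3 was 0.669 of its worth in D0. The D3 value over the D0 value was 0.669 for Nodal and 0.669 for Tdgf1, which is the same number of fragments in both libraries. For Gdf3 the ratio was 8.03, or 12.0 times as many fragments in D3 as in D0. In D0, Gdf3 (0.0234 FPKM) was below Nodal (0.0944 FPKM) and Tdgf1 (0.155 FPKM), so its ratio rests on few fragments.

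Promoter sequences are shown because these genes came up in the same libraries. Of the 5 members, 2 matched the RefSeq promoter table used here (GRCm38.p6), Nodal and Tdgf1, and Gdf3, Lefty1 and Lefty2 did not match. The 250 bases before the start of Nodal (chr10:61417722-61417971, plus strand) and of Tdgf1 (chr9:110946159-110946408, minus strand) are printed from 5′ to 3′, with matches to the searched words in capitals.
Nodal: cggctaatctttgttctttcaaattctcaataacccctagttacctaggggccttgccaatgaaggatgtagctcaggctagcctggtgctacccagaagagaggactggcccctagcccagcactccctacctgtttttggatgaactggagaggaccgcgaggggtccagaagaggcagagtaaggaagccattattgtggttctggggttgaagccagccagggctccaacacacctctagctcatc
Tdgf1: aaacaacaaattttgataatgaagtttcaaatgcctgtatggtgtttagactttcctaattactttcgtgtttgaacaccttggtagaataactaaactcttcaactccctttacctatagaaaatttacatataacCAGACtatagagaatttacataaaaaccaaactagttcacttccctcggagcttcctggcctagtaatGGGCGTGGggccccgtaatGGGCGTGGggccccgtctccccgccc

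The words searched on both strands were AATCCACA or AATACACA for FoxH1, GTCTAGAC and GTCTG for Smads, ATGCAAAT for the octamer that Oct4 reads, CATTGT for Sox factors and GGGCGTGG for Klf factors. The Tdgf1 window held 2 copies of GGGCGTGG, at -45 to -38 and at -26 to -19 counted from the start. Of 32851 promoter windows of that length, 4.79% held this word at least once. The window also held GTCTG on the opposite strand at -113 to -109, which 42.2% of windows do. No matches overlapped each other, and the Nodal window held none of the words. The FoxH1 words were in 1.61% of windows, GTCTAGAC in 0.167%, the octamer in 1.6% and the Sox word in 10.7%.

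Lefty1 and Lefty2 are neighbours in the genome and followed another course. Lefty1 (ENSMUSG00000038793.8) lies on chromosome 1, 182865153 to 182868531, and Lefty2 (ENSMUSG00000066652.5) at 182823239 to 182829234, both on the plus strand with 4 exons each and 35918 bases apart. Lefty1 was the member with the highest level in D0, at 3.41 FPKM (0 to 9.36). It was at 1.08 FPKM in D3, 1.70 in D6T-, 8.91 in D9T-, 41.7 in D12S+ and 115 in D16S+. The other fractions held 5.16 FPKM in D6T+, 9.36 in D9T+, 9.57 in D12S- and 11.9 in D16S-. The end points were both below D0, iPSCs with 0.867 FPKM and mESCs with 1.32 FPKM.

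Lefty2 was listed at 0 in D0 and D3. It was then at 0.292 FPKM in D6T-, 2.57 in D9T-, 18.9 in D12S+ and 51.6 in D16S+, against 0.126 FPKM in D6T+, 1.03 in D9T+, 2.63 in D12S- and 3.79 in D16S-. In iPSCs 1.58 FPKM remained, and mESCs had 2.41 FPKM. Both antagonists were therefore highest in D16S+ and second highest in D12S+, and both were low at the end points. Lefty1 was at 2.20 times the level of Lefty2 in D12S+ and 2.23 times in D16S+, and at 0.549 and 0.548 times in iPSCs and mESCs.

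**Figure D1:**
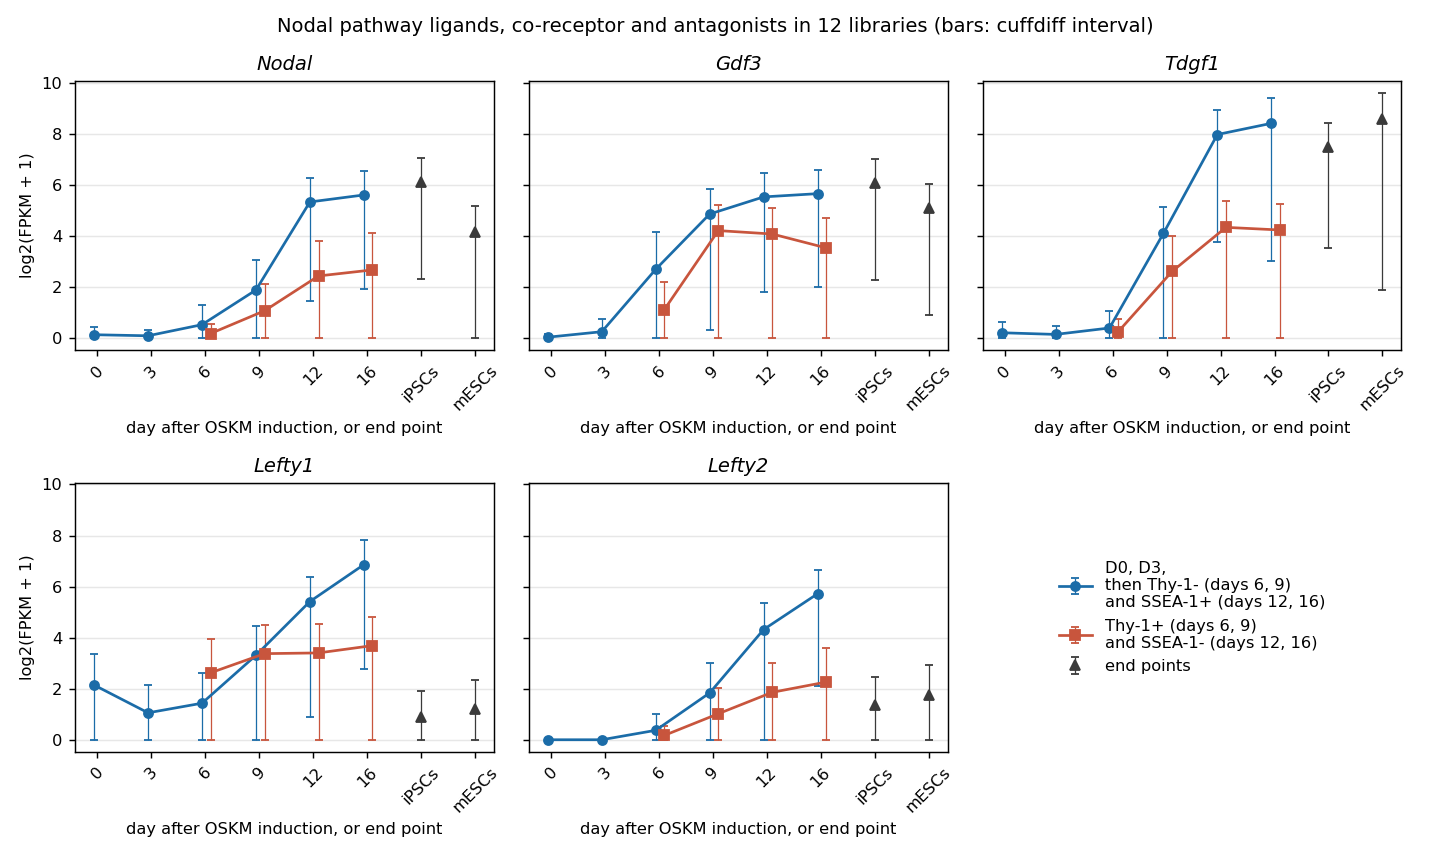
Levels of the 5 genes as log2(FPKM + 1) against the day after OSKM induction, with the Thy-1- and SSEA-1+ fractions as circles, the Thy-1+ and SSEA-1- fractions as squares, the end points as triangles, and the deposited cuffdiff interval as bars. In iPSCs and mESCs, Nodal, Gdf3 and Tdgf1 are at 16.8 FPKM or more, with Nodal lower in mESCs (16.8 FPKM) than in D16S+ (47.7 FPKM). Lefty1 (0.867 and 1.32 FPKM) and Lefty2 (1.58 and 2.41 FPKM) are low in iPSCs and mESCs. Both have their highest values in D16S+ (115 and 51.6 FPKM).

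The order of the levels was read against the deposited intervals. In each of the 5 genes, the intervals of all 11 pairs of neighbours in the order of levels overlapped. Of the 66 pairs of libraries, the intervals lay apart in 16 pairs for Tdgf1, 13 for Nodal, 10 for Gdf3, 5 for Lefty2 and 4 for Lefty1. For Lefty1 these pairs set D16S+ (5.78 to 224 FPKM) above D6T- (0 to 5.08), D3 (0 to 3.39), iPSCs (0 to 2.79) and mESCs (0 to 4.07). For Lefty2 they set D16S+ above D0, D3, both day 6 fractions and D9T+. For Nodal and Tdgf1 they set D12S+, D16S+ and iPSCs above D0, D3 and both day 6 fractions, with mESCs above the same libraries for Tdgf1 and iPSCs above D9T+ for Nodal. For Gdf3 they set D12S+, D16S+, iPSCs and mESCs above D0 and D3, D9T- above D0, and iPSCs above D6T+.

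To ask how far the RNA levels of these 5 genes differed along each route, day 16 was compared with D0. All comparisons of this paragraph share D0. Differences are in log2(FPKM + 1), which understates the change of low genes, and a gene is counted when it differs by at least 2-fold. In D16S+ all 5 genes were higher than in D0, where 20% of the 14178 genes with enough expression were. The differences were 8.20 for Tdgf1, 5.72 for Lefty2, 5.62 for Gdf3, 5.48 for Nodal and 4.72 for Lefty1, where Lefty2 was listed at 0 in D0. Tdgf1 ranked 5th from the top of all genes. The intervals lay apart for 4 of the 5, the exception being Lefty1, and for 0.557% of all genes in this direction. In D16S- all 5 were higher as well, against 12.8% of genes. These differences were 4.03 for Tdgf1, 3.50 for Gdf3, 2.54 for Nodal, 2.26 for Lefty2 and 1.55 for Lefty1. The intervals of all 5 overlapped, where 0.346% of all genes had intervals apart in this direction. In iPSCs 4 of the 5 were higher than in D0 (18.7% of genes) and Lefty1 was lower, at -1.24 (21.6% of genes), with intervals apart for Nodal, Gdf3 and Tdgf1 (0.466% of genes). In mESCs 4 of the 5 were higher than in D0 (20.7% of genes), with -0.93 for Lefty1 and intervals apart for Gdf3 and Tdgf1 (0.473% of genes).

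The steps between successive libraries were then read for each gene, where the intervals of all 5 members overlapped at every step. Among all genes, at most 0.0846% had intervals apart in a given direction at any of these steps. From D0 to D3, Lefty1 was the member past 2-fold, at -1.09, where 8.67% of genes were lower. Gdf3 was the member past 2-fold from D3 to D6T-, with 2.44, where 3.96% of genes were higher. All 5 were higher in D9T- than in D6T- (5.06% of genes), from 1.36 for Nodal to 3.71 for Tdgf1. From D9T- to D12S+, where the sorting marker also changed, 4 of the 5 were higher (7.05% of genes), and Tdgf1 (3.87) and Nodal (3.45) ranked 10th and 18th from the top of all genes while Gdf3 differed by 0.67. From D12S+ to D16S+ the 2 antagonists went on, with 1.44 for Lefty1 and 1.40 for Lefty2 (3.59% of genes higher), against 0.44 for Tdgf1, 0.27 for Nodal and 0.13 for Gdf3. From D6T+ to D9T+, 2 of the 5 were higher, Gdf3 with 3.09 and Tdgf1 with 2.36 (4.92% of genes higher). From D12S- to D16S- no member passed 2-fold (2.03% of genes higher and 0.536% lower).

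Next, the fractions sorted on the same day were set against each other. On day 6, Gdf3 was higher in Thy-1- cells by 1.58 (2.93% of genes higher) and Lefty1 was lower, at -1.19 (9.47% of genes lower), while Nodal, Tdgf1 and Lefty2 differed by 0.35, 0.15 and 0.20. On day 9, Tdgf1 was higher in Thy-1- cells by 1.49 (1.81% of genes higher). The other differences were 0.81 for Nodal, 0.82 for Lefty2, 0.65 for Gdf3 and -0.06 for Lefty1.

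On day 12 all 5 genes were higher in SSEA-1+ cells (4.79% of genes), by 3.64 for Tdgf1, 2.90 for Nodal, 2.46 for Lefty2, 2.01 for Lefty1 and 1.45 for Gdf3. On day 16 all 5 were again higher (11.8% of genes), by 4.18 for Tdgf1, 3.46 for Lefty2, 3.17 for Lefty1, 2.94 for Nodal and 2.12 for Gdf3. In FPKM, D16S+ over D16S- came to 19.1-fold for Tdgf1, 13.6-fold for Lefty2, 9.68-fold for Lefty1, 8.90-fold for Nodal and 4.68-fold for Gdf3. No member had intervals that lay apart between the fractions of a day. Of all 14178 genes, 0 did on days 6, 9 and 12 and 2 (0.0141%) on day 16, so this does not set the members apart. The summed pluripotency markers moved with these genes, from 136 FPKM in D12S- to 2074 FPKM in D12S+ and from 149 FPKM in D16S- to 4637 FPKM in D16S+, and all 8 were at least 2-fold higher in D16S+. Their part in the differences was not tested.

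**Figure D2:**
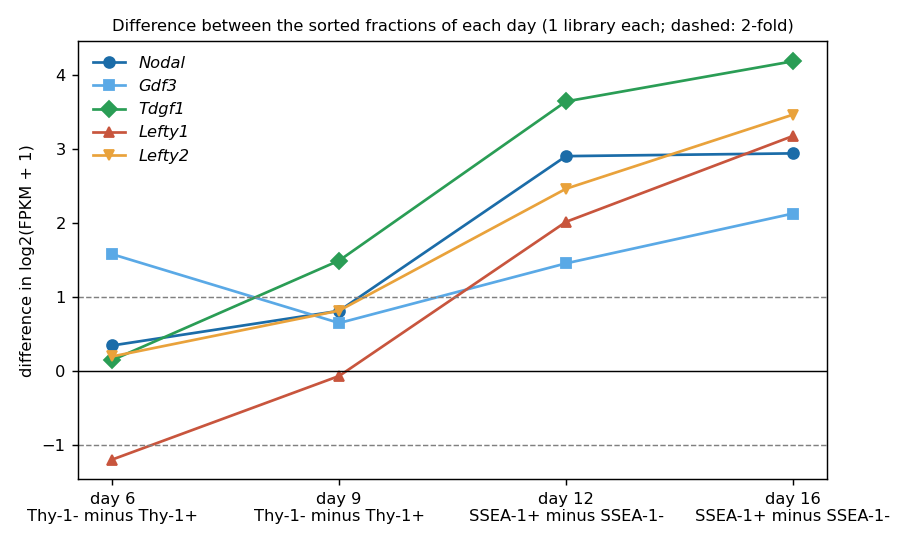
Difference in log2(FPKM + 1) between the 2 sorted fractions of each day for the 5 genes, with 1 library per fraction, positive where the Thy-1- or SSEA-1+ fraction is higher and dashed lines at 2-fold. Lefty1 goes from -1.19 on day 6 to 3.17 on day 16, and all 5 genes lie above the upper dashed line on days 12 and 16.

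From D16S+ to iPSCs, the antagonists were lower, whereas the ligands stayed within 2-fold with overlapping intervals. Nodal (0.49) and Gdf3 (0.43) were somewhat higher in iPSCs and Tdgf1 was lower, at -0.94, all within 2-fold. Scaled to the same total FPKM, Tdgf1 passed 2-fold with -1.12, and 3 members instead of 2 were then lower. Lefty1 was lower, at -5.96 or 133-fold in FPKM, and Lefty2 at -4.35 or 32.7-fold, where 7.77% of genes were at least 2-fold lower. Of all 14178 genes, Lefty1 ranked 5th and Lefty2 17th from the bottom. The intervals of Lefty1 lay apart, as did those of 0.0282% of genes in this direction, and those of Lefty2 (3.28 to 100.0 FPKM in D16S+ and 0 to 4.51 in iPSCs) overlapped.

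The mESCs, which share D16S+ as the reference in this comparison, gave -5.64 for Lefty1 and -3.95 for Lefty2, with -1.45 for Nodal, -0.58 for Gdf3 and 0.18 for Tdgf1 (9.43% of genes lower). The intervals of Lefty1 again lay apart (0.0564% of genes). The summed level of both antagonists was 3.50 times that of Nodal in D16S+ and 1.54 times in D12S+. It was 2.93 times in D16S- and 2.77 times in D12S-. In iPSCs the sum was 0.0363 times and in mESCs 0.222 times the level of Nodal. The pluripotency markers summed to 4637 FPKM in D16S+, 3907 FPKM in iPSCs and 4045 FPKM in mESCs, and all 8 were above 1 FPKM in each of these libraries. Dppa5a made up most of these sums, with 3582, 2441 and 2698 FPKM. Against D16S+, 2 of the 8 were at least 2-fold higher in iPSCs (4.38% of genes) and 1 in mESCs (6.98% of genes), and 0 were lower in either.

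**Figure D3:**
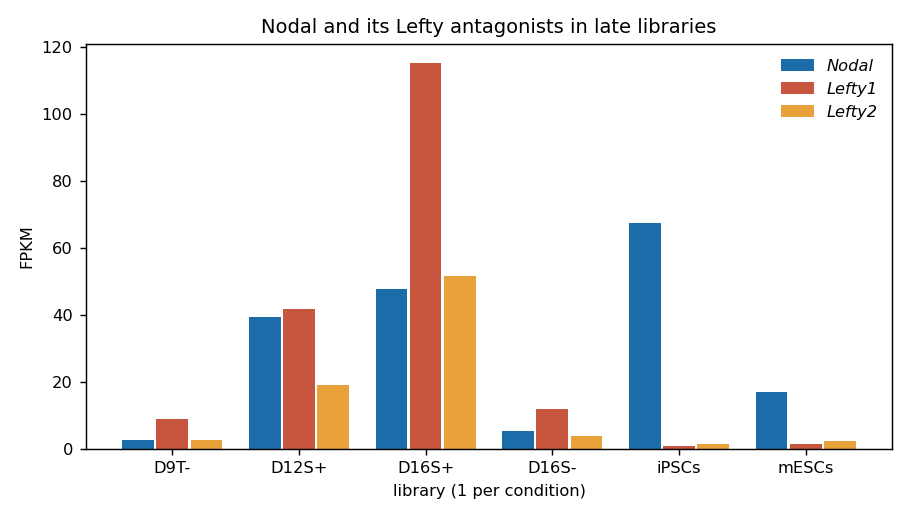
FPKM of Nodal, Lefty1 and Lefty2 in 6 late libraries, 1 bar per gene and library. Lefty1 (115 FPKM) stands above Nodal (47.7 FPKM) in D16S+, and Nodal (67.4 FPKM) stands above both antagonists in iPSCs.

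The end points were then compared with each other. Nodal was higher in iPSCs than in mESCs by 1.94, or 4.01-fold, and Gdf3 by 1.01 (6.79% of genes higher). Tdgf1 was lower in iPSCs, at -1.13 (7.41% of genes lower). Lefty1 and Lefty2 differed by -0.31 and -0.40. All 5 pairs of intervals overlapped, as did those of all other genes.

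Among the members, the Pearson correlation of log2(FPKM + 1) over the 12 libraries was 0.96 for Nodal and Tdgf1, 0.89 for Gdf3 and Tdgf1 and 0.86 for Lefty1 and Lefty2. It was 0.41 for Nodal and Lefty1 and 0.78 for Nodal and Lefty2. Many of the libraries share starting cells, culture or sorting, so these values are descriptions. In the same way the most similar genes were sought among 8799 other genes that reached 10 FPKM. For Tdgf1 they were Foxh1 (0.994), Dppa5a (0.993) and Gng3 (0.992). For Nodal they were Ctbp2 (0.990), Grhl2 (0.986) and Trim71 (0.983), and for Gdf3 they included Jarid2 (0.976) and Slc28a1 (0.971). For Lefty1 they were Dhrs7 (0.949), Phka2 (0.900) and Ift172 (0.899), and for Lefty2 Skil (0.948), Ubxn11 (0.943) and Adap2 (0.935). Dhrs7, like Lefty1, was highest in D16S+ (58.0 FPKM) and lowest in iPSCs (8.93 FPKM).

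The rest of the Nodal and Activin pathway was followed through 7 lists with 43 genes, of which 33 had enough expression. Between D0 and D16S+, 8 were higher and 10 lower, with a median difference of 0.22 (0.05 for all genes), against 5.62 for the members. Of all genes, 20% were higher and 20.9% lower. Of the other ligands of the Activin type, 3 of 5 were lower and none higher (20.9% and 20% of all genes). Inhba, which encodes the subunit of Activin A, fell from 36.98 FPKM to 2.33 FPKM, Inhbb from 117 to 2.72 FPKM and Gdf11 from 21.9 to 0.822 FPKM. Gdf1, another ligand of the family, was at 5.16 FPKM in mESCs and at or below 1.25 FPKM elsewhere.

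Of the receptors, Acvr2b, a type II receptor, was at 0.652 FPKM in D0, 11.4 in D16S+ and 15.8 in iPSCs. The type I receptor Acvr1b was at 7.44, 13.2 and 10.2 FPKM in these libraries. The type I receptor Acvr1c and the second Cripto-type co-receptor Cfc1 stayed below 1 FPKM throughout. Foxh1, the DNA-binding partner of the Smads, went from 0.0757 FPKM in D0 to 5.87 in D9T-, 48.5 in D12S+, 58.5 in D16S+, 69.7 in iPSCs and 67.4 in mESCs, against 8.63 FPKM in D16S-. Smad2, Smad4 and Smad3, the transducers, were at 4.75, 22.7 and 7.93 FPKM in D16S+, of which Smad3 was lower than in D0 (21.9 FPKM).

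The convertases cut the ligand precursors. Pcsk6 was at 3.38 FPKM in D0, 14.2 in D16S+ and 45.05 in iPSCs. Furin was at 147, 27.2 and 20.4 FPKM in these libraries and Pcsk5 at 2.43, 0.671 and 0.260 FPKM. Of the other secreted antagonists, 3 of 4 were lower in D16S+ than in D0 and none was higher, beside the same shares of all genes. Fst, which binds Activin, was at 10.7 FPKM in D0 and 1.34 FPKM in D16S+. Cer1, which binds Nodal, was at 2.39 FPKM in D0 and listed at 0 in D16S+, iPSCs and mESCs. Between D16S+ and iPSCs, where Lefty1 and Lefty2 were lower, 0 of these 4 passed 2-fold in either direction. Of all genes, 4.38% were higher and 7.77% lower. Cer1, at 0 in both libraries, could not pass. In plain FPKM, Dand5 went from 2.34 to 1.06, Fstl3 from 7.59 to 3.93 and Fst from 1.34 to 2.16.

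Between D16S+ and iPSCs, 1 of the 33 genes was higher (Pcsk6) and 3 were lower, beside 4.38% and 7.77% of all genes. The lower genes included Skil, a repressor of Smads (16.5 to 4.32 FPKM), and Eomes, a mesendoderm factor (4.41 to 1.66 FPKM, a difference of -1.02). Skil and Eomes, like Lefty1 and Lefty2, were highest in D16S+ among the 12 libraries. Eomes was at 4.28 FPKM in mESCs. Other mesendoderm targets were low: T, Mixl1, Foxa2, Lhx1 and Wnt3 did not reach 1 FPKM in any library, and Gsc was highest in D0 (1.80 FPKM). Between D16S+ and D16S-, 6 pathway genes were higher and 8 lower (11.8% and 15.2% of all genes).

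**Figure D4:**
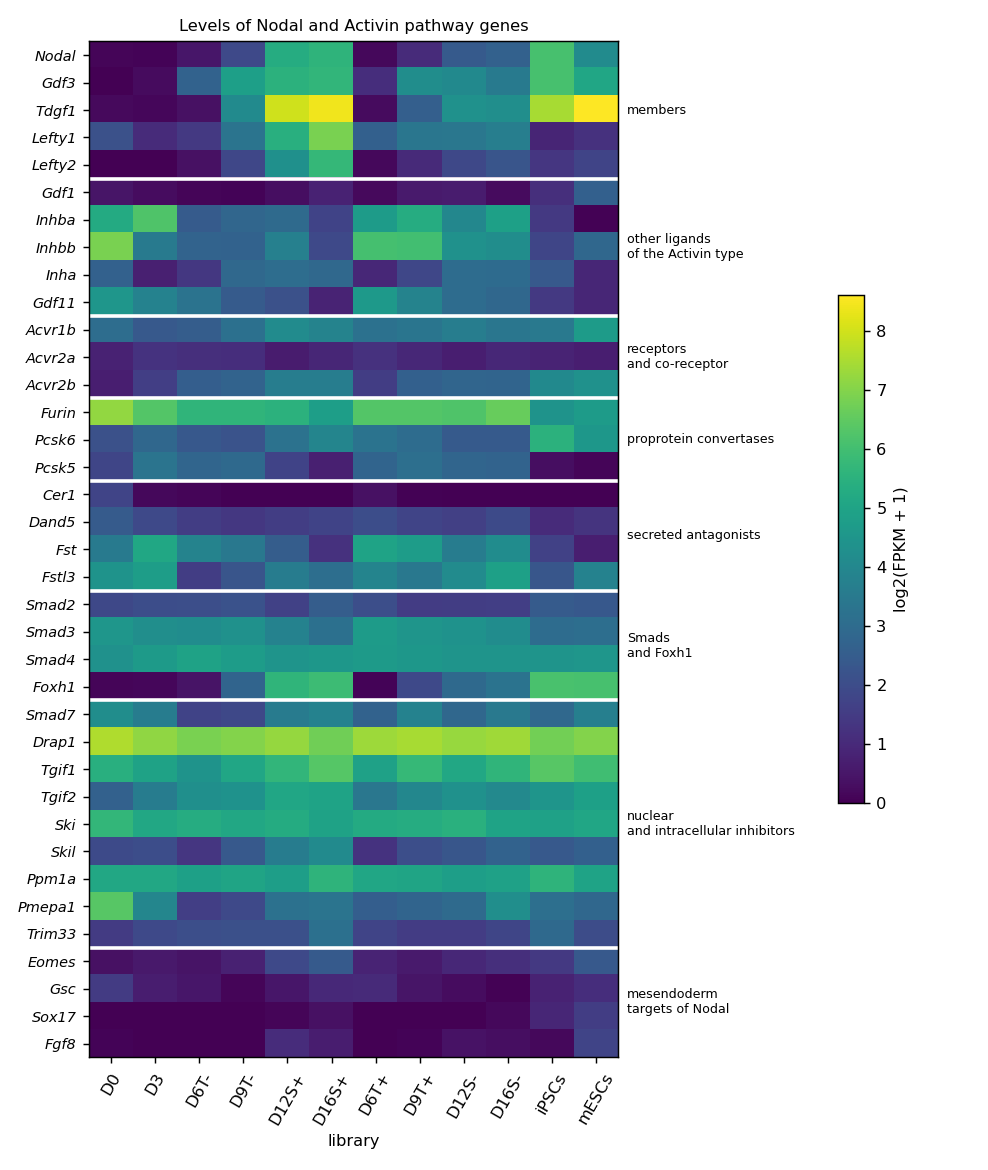
Levels as log2(FPKM + 1) of the 5 members and of other pathway genes of at least 1 FPKM, by gene (rows, grouped by role) and library (columns). Foxh1 brightens in the same libraries as Nodal and Tdgf1 (58.5 FPKM in D16S+), while Inhba is brightest in D3 (74.1 FPKM) and Inhbb in D0 (117 FPKM).

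The genes beside the members in the genome were read too. The nearest protein-coding genes on either side were sought, of which X99384 and BC031781 were not in the table by that symbol. Dppa3, a germ line and pluripotency gene 16323 bases from Gdf3, was listed at 0 in D0 and was at 85.03 FPKM in D16S+, 0.970 in D16S- and 17.9 in iPSCs. Apobec1, on the other side of Gdf3 at 2959 bases, was at 4.60 FPKM in D0, 10.3 in D16S+, 20.3 in D16S- and 2.96 in iPSCs. Tmem63a, 3944 bases beyond Lefty1, was at 28.4 FPKM in D0, 12.9 in D16S+, 28.6 in D16S- and 3.24 in iPSCs. Lrrc2, 5387 bases from Tdgf1, stayed below 5 FPKM in every library. Eif4ebp2, 7159 bases from Nodal, was at 35.6 FPKM in D0 and 105 FPKM in iPSCs.

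The authors removed reads that mapped to more than 1 locus, which bears on members with near-identical copies. Stretches of at least 100 bases and 95% identity elsewhere in the genome covered 51.7% of the Tdgf1 transcript, in 1 copy on chromosome 16 (3730260 to 3731268, mm9) at 96.7% identity. They covered 36.9% of Lefty1 and 24.3% of Lefty2, each within the other gene, and 0 bases of Nodal. In Gdf3 they covered 6.12%, a stretch of 130 bases with 451 copies. Of windows of 50 bases, 17.9% of those in Lefty1 occurred without a mismatch in Lefty2. What this takes from the levels of Tdgf1, Lefty1 and Lefty2 was not tested. It applies to a gene in every library, but it can differ between genes. Ratios between genes, such as that of the antagonists over Nodal, may therefore be shifted to an unknown degree.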

How the data were processed

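Messenger RNA of 12 conditions was sequenced, 1 library each, grouped by sample title. The authors mapped the reads to mm9 with STAR, removed reads with more than 2 mismatches or more than 1 locus, and estimated levels with cuffdiff. The deposited values are FPKM with the lower and upper end of an interval, also in FPKM. Versions, gene annotation and library scaling are not given in the sources used here. The labels name the TruSeq Stranded mRNA LT kit and the methods the TruSeq RNA Sample Prep kit, so strand use is not settled. The 12 status columns of cuffdiff held no levels and were used only to see that all 5 members had the status OK.

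From these values, log2(FPKM + 1) differences were computed with pandas 2.3.3 in Python 3.11.15 and called at 2-fold, without a test. Genes with at least 1 FPKM in at least 1 library were kept (14178). Absolute depth is unknown. The members and lists were chosen with earlier results of these data known. Named genes are the members, all genes of the lists, and per member the 3 genes of highest Pearson correlation among genes of at least 10 FPKM, leaving out the OSKM genes. Nearest neighbours in the genome were added after the data were seen. Positions are from GENCODE M1 (mm9), copies from blastn 2.17.0, promoters from RefSeq. Functions were tested on simulated data. Alternatives were another pseudocount, scaling, filter, fold and correlation. The values of some genes that these rules name are not reported here, and they stay in the counts.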

Additional observations from a re-analysis of the deposited data

Results flagged for a closer look

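The 5 members and the 43 other pathway genes were read with a pseudocount of 1. Among them, Lefty1 was the gene whose difference between the sorted fractions was at least 2-fold in opposite directions on different days. It was -1.19 on day 6, -0.065 on day 9, 2.01 on day 12 and 3.17 on day 16 in log2(FPKM + 1), positive where the Thy-1- or SSEA-1+ fraction was higher. With 1 library per fraction this change of direction was not tested. Cells were sorted on Thy-1 up to day 9 and on SSEA-1 from day 12, so the day and the marker cannot be told apart. That Lefty1 stood alone depends on the pseudocount. In plain FPKM, other pathway genes such as Pcsk6 and Gsc also turned past 2-fold. Pcsk6 was at 4.13 FPKM in D6T- and 8.70 in D6T+, against 14.2 in D16S+ and 4.38 in D16S-. Gsc was at 0.431 FPKM in D6T- and 1.03 in D6T+, against 0.976 in D16S+ and 0.0450 in D16S-.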

How the results depend on the processing

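Of 284 recomputed values, 209 stayed close to those reported, 75 moved and no called value changed sign. The Lefty1 difference between the day 9 fractions, within 2-fold, went from -0.065 to 0.038 when libraries were scaled to the same total FPKM. The log2 differences of the members moved by less than 0.5 under both other scalings in all 45 cases, and with a pseudocount of 0.1 in 27 of 45. Without the filter on low values, all 18 shares of called genes moved.

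With a pseudocount of 0.1, members higher in Thy-1- cells numbered 2 on day 6 and 3 on day 9. Of the other pathway genes, 7 were then higher in D16S- than in D0, 2 higher and 10 lower in D6T- than in D6T+, 2 higher in D9T- than in D9T+, 4 higher in D12S+ than in D12S-, 2 higher and 6 lower in iPSCs than in D16S+, and 5 higher and 8 lower in iPSCs than in mESCs. Scaled to the same total FPKM, 5 were higher in D16S- than in D0 instead of 3.

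At a 4-fold threshold, 0 members were lower in iPSCs than in D0, 0 differed in either direction on day 6, 0 were higher in Thy-1- cells on day 9, and 0 differed between iPSCs and mESCs. Of the other pathway genes, 5 were then higher and 6 lower in D16S+ than in D0, 2 lower in D16S- than in D0, and 3 higher and 6 lower in iPSCs than in D0. Between fractions, 0 were higher and 3 lower on day 6, 0 higher and 2 lower on day 9, 1 higher and 0 lower on day 12, and 1 higher and 4 lower on day 16. In iPSCs, 0 were higher and 1 lower than in D16S+, and 0 differed from mESCs. By Spearman's rank correlation, the 3 most similar genes shared 0 with those of Pearson's for Nodal, Tdgf1 and Lefty2 and 1 for Lefty1. Trim71 was tied for the highest rank correlation with Nodal but was not among the 3 taken.

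No paired analysis was possible because each condition had 1 library and the labels give no replicate numbers. The spread between cultures is unknown, the deposited intervals are modelled, and absolute depth is not known. Low values such as those of Nodal, Tdgf1 and Lefty2 up to day 6, and of Gdf3 in D0, therefore rest on few fragments.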
